A study of Mus musculus with 9 samples.

Results

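The genes described here encode the working parts of the lysosome. The rule that lists them used no measured value, but the genes were chosen with earlier results of these data known. The list held 34 mouse genes, listed by symbol and grouped by role: 6 cysteine cathepsins (Ctsb, Ctsc, Ctsh, Ctsl, Ctss and Ctsz), 4 other lysosomal proteases (Ctsa, Ctsd, Lgmn and Tpp1), the secreted cathepsin inhibitor Cst3, 5 glycosidases (Hexa, Gusb, Glb1, Man2b1 and Neu1), 7 genes of lipid handling (Psap, Npc1, Npc2, Lipa, Asah1, Ppt1 and Grn), 7 membrane proteins (Lamp1, Lamp2, Cd63, Cd68, Scarb2, Laptm5 and Laptm4a) and 4 parts of the proton pump or its accessory protein (Atp6v0c, Atp6v0d1, Atp6v1a and Atp6ap1). Of these, 33 were listed in the table of every sample, among 12580 symbols that all tables shared. Atp6v0c was not listed in untreated P3 and was therefore missing there, not at 0. It stood between 0 and 7.86 CPM, the UMIs of a gene scaled to a common total, in the myeloid-like cells of the other samples and was left out of all scores. The summed level of the 33 genes is given as a share, the percent of all UMIs in a group of cells that fell on them. A UMI is the molecular barcode that counts 1 captured RNA molecule.

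The samples were mouse cells of the tumor microenvironment (TME) from glioblastoma patient-derived orthotopic xenografts (PDOXs), in which human tumor organoids grow in the brain of athymic nude mice, so that the surrounding cells are of mouse origin. There were 7 untreated PDOXs (P3, P8, P13, T16, T101, T192 and T233), 1 PDOX treated with temozolomide (P3TMZ), the alkylating drug used against glioblastoma, and 1 normal nude mouse brain without a tumor. All mice shared the nude background, which lacks most T cells, and the labels gave no age. T192 and T233 came from the same patient, and each sample was 1 library, so that p-values measure the spread between PDOXs and not between mice of 1 PDOX. Human cells were removed by fluorescence-activated sorting in P8 and the normal brain and with a magnetic mouse cell depletion kit in the others, and the tables of P8 and the normal brain also used an older symbol release, so that sorting, release and absence of a tumor cannot be told apart for the 6 PDOXs other than P8. The labels call P3 untreated, while the study's treatment experiment gave its control P3 mice the carrier without drug.

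Lysosomes are acidic compartments in which proteases, glycosidases and lipases break down material taken up by endocytosis, phagocytosis or autophagy. A vacuolar proton pump keeps them acidic, heavily glycosylated membrane proteins such as Lamp1 and Lamp2 line them, and secreted inhibitors such as cystatin C, the product of Cst3, act on cathepsins that leave the cell. In the brain, microglia are the main phagocytes and are rich in lysosomes, and cathepsin S, the product of Ctss, is known as a microglial and macrophage protease. Many lysosomal genes share a binding site for the transcription factor TFEB in their promoters, the CLEAR element.

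Sequences of the promoters are shown because this element is known from many lysosomal genes, and the CLEAR core TCACGTGA was searched in the 250 bases before each gene's start in the RefSeq table of build GRCm38.p6. Of the 34 members, 30 had an entry. The 8 letters, which read the same on both strands, were found in 3 of the 30, Ctsa, Ctsd and Atp6v1a, against 245 of all 27025 genes in the table (0.907%) and 6 of 51 other lysosome genes listed for comparison (11.8%), where a gene with several starts counted once. The PU.1 core GAGGAAGT, searched on both strands because PU.1 is a myeloid transcription factor, was found in Ctsc alone (3.33% of members and 2.79% of all genes). The E-box CACGTG, which lies inside TCACGTGA, was found in 7 members (23.3%, against 6.86% of all genes): Ctsl, Ctsa, Ctsd, Lgmn, Glb1, Lamp1 and Atp6v1a. The 4 stretches that hold either longer motif follow 5′ to 3′ on the strand of the gene, with the motif in capitals, which in Ctsc is the reverse complement of the letters searched. They lie at chr2:164833700-164833772 on the plus strand, with the motif's first base 13 bases before the start used, at chr7:142387859-142387986 on the minus strand (99 bases before), at chr16:44139324-44139451 on the minus strand (132 bases before) and at chr7:88277874-88278001 on the plus strand (151 bases before). Those of Ctsd and Ctsc lie upstream of the annotated gene, and those of Ctsa and Atp6v1a lie inside the span that RefSeq annotates for the gene over all its transcripts. A match describes these letters and is no measurement of binding.
Ctsa: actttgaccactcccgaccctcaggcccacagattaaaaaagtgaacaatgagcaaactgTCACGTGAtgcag
Ctsd: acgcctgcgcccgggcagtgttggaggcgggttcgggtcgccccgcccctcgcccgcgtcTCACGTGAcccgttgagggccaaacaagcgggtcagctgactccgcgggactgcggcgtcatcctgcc
Atp6v1a: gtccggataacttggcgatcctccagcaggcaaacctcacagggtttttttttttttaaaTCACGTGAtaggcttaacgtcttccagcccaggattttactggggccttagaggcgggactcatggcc
Ctsc: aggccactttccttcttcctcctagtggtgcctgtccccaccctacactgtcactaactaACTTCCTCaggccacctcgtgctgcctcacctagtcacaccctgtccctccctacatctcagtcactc

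The tables held between 1294068 UMIs (P3) and 8410580 UMIs (P13), and 1519323 in the normal brain. After filtering, 794 (P3) to 2797 (P13) cells remained per untreated PDOX, 728 in P3TMZ and 1794 in the normal brain, with medians of 519 to 1278 UMIs per cell. No pair of libraries shared more than 11 cell barcodes. Cells were clustered without the 34 genes and without 72 other lysosome genes, and clusters were called by their markers. Myeloid-like cells (218 in T101 to 1041 in T192, and 638 in the normal brain) carried the 12 myeloid markers at a summed 20543 to 24749 CPM in the PDOXs and 24608 CPM in the normal brain. Endothelial-like cells carried the 10 endothelial markers at 12688 to 23414 CPM, and astrocyte-like cells the 10 astrocyte markers at 26259 to 38794 CPM. Only 4 astrocyte-like cells were found in P3, so astrocyte values rest on 6 PDOXs. In T101, 49.0% of cells stayed unnamed, more than in any other sample. One myeloid-like sub-cluster of 276 cells, with a median of 8826 UMIs per cell, also carried raised astrocyte and mural markers, and no cell of the normal brain fell in it. It held 65.2% of the myeloid-like UMIs of T192, 63.9% of T233 and 48.7% of P13, against 2.64% of T101, and the main counts and shares of myeloid-like cells are therefore also given without it.

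Lysosome genes took a larger share of the RNA in myeloid-like cells than in any other class of cells. The 33 genes took 7.48% (T101) to 10.04% (P3) of the UMIs of myeloid-like cells over the 7 untreated PDOXs (median 8.54%, SD 0.879). In astrocyte-like cells they took 2.32% to 5.46% (median 4.31%, 6 PDOXs, or 2.23% with cells called from markers alone), and in endothelial-like cells 0.706% to 1.55% (median 0.978%). The ranges of these 3 classes did not overlap. Mural-like cells (pericytes and smooth muscle) spread from 0.964% to 4.68% (median 3.95%), and in the same cells 6 myeloid genes (C1qa, C1qb, C1qc, Csf1r, Cx3cr1 and P2ry12) stood at a median of 32.1% of their level in myeloid-like cells (1.64% to 59.3%). The part of myeloid RNA in the mural values was not tested, and mural-like cells are not used further. Without the 276 cells with markers of other classes, the median share in myeloid-like cells was 9.22%.

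Cst3 made up much of these shares. It took 5.34% of all UMIs in the myeloid-like cells of P13, 4.75% in T16, 3.83% in P3 and 1.86% in T192, the lowest, against 5.03% in the normal brain. Of the members' UMIs in astrocyte-like cells, Cst3 held a median of 73.1%, in myeloid-like cells 38.1% and in endothelial-like cells 31.8%. With Cst3 left out of both the genes and the total, the other 32 genes took 3.88% to 6.81% in myeloid-like cells (median 5.47%), 0.807% to 2.29% in astrocyte-like cells (median 1.06%) and 0.485% to 1.14% in endothelial-like cells (median 0.549%). Myeloid-like cells then stayed apart from both others, while the ranges of astrocyte-like and endothelial-like cells overlapped. The cysteine cathepsins as a group summed to 16746 to 25692 CPM in myeloid-like cells, of which Ctss alone gave 8129 to 15884 CPM, and the 3 proton pump genes listed in every table summed to 333 to 644 CPM. The libraries count 3′ ends of molecules, so CPM does not scale with the length of a gene.

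**Figure D1:**
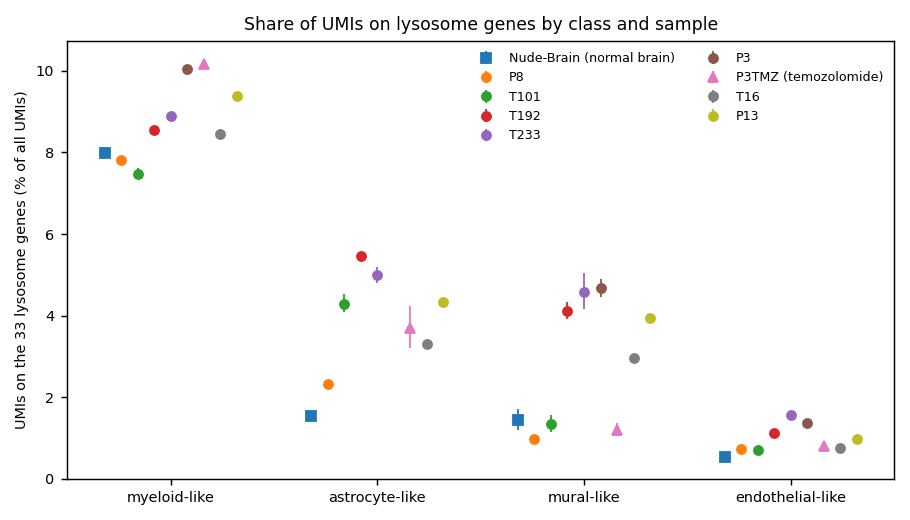
Share of UMIs on the 33 lysosome genes (y axis, percent of all UMIs) in 4 classes of cells (x axis), 1 symbol per sample, with 95% Clopper-Pearson intervals that cover counting error only and are mostly smaller than the symbol. Myeloid-like cells lie between 7.48% and 10.2% in all 9 samples, above every value of the other classes, and the normal brain (squares) is the lowest sample in astrocyte-like and endothelial-like cells.

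The first comparison asked which members distinguished myeloid-like from endothelial-like cells within the same PDOX. UMIs were summed per PDOX and class and tested with the edgeR quasi-likelihood test, with the PDOX as a block, over 4367 genes. Of the 31 members that passed the filter on low counts, 27 were higher in myeloid-like cells at an adjusted p of at most 0.05, 1 was lower, and 3 passed in neither direction. Over all genes tested, 26.8% were higher and 28.3% lower in myeloid-like cells. The median log2 fold change was 2.76 over the members and -0.04 over all genes. Neu1 and Npc1 did not pass the filter on low counts and were not tested here. Without the 276 cells with markers of other classes, 26 of 30 members tested were higher and 1 lower.

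Among the cysteine cathepsins, Ctss showed the widest gap. It stood at 8129 (P13) to 15884 CPM (T101), median 11979, in myeloid-like cells and at 88.0 (T16) to 1154 CPM (T233), median 191.7, in endothelial-like cells, so the groups did not overlap (log2 fold change 5.59 ± 0.43 (SE), adjusted p = 2.43e-08). Ctsb, the most abundant of the other 5 in 7 of 7 PDOXs, stood at 3037 to 7239 CPM (median 5964) against 127 to 1002 CPM (median 383) (log2 fold change 4.11 ± 0.26 (SE), adjusted p = 3.64e-09). Ctsz followed with 961 to 2913 CPM (median 1815) against 33.5 to 209 CPM (median 113) (log2 fold change 4.09 ± 0.22 (SE), adjusted p = 1.13e-09). Ctsc, which activates the proteases of immune cell granules, had a log2 fold change of 2.63 ± 0.18. Ctsh and Ctsl were closest between the classes, at log2 fold changes of 1.46 ± 0.17 and 1.43 ± 0.21. Endothelial-like cells held Ctsl at 488 to 1358 CPM (median 723), the highest of the 6 cysteine cathepsins in that class in 6 of 7 PDOXs.

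The aspartic protease Ctsd was the second most abundant protease of myeloid-like cells after Ctss by the median, at 6656 (T16) to 19193 CPM (T233), median 8709.5, and stood at 168 to 1818 CPM (median 305) in endothelial-like cells (log2 fold change 4.71 ± 0.31 (SE), adjusted p = 5.11e-09). T192, T233 and P3 held 15797 to 19193 CPM of Ctsd in myeloid-like cells and the other 4 PDOXs 6656 to 8709.5. The first 3 also held the most in endothelial-like cells. The myeloid genes named above for mural-like cells were highest in the endothelial-like cells of the same 3 PDOXs. They stood there at 9.18% (T233), 4.97% (T192) and 4.36% (P3) of their myeloid level, and at 2.19% or less in the others. Their part in the Ctsd values of endothelial-like cells was not tested. Lgmn, the asparaginyl endopeptidase that processes cathepsins, had a log2 fold change of 3.74 ± 0.24, Ctsa, a carboxypeptidase that also protects other lysosomal enzymes, of 3.15 ± 0.19, and the tripeptidase Tpp1 of 1.58 ± 0.17. The inhibitor Cst3 stood at 18568 to 53427 CPM (median 29548) against 2113 to 4803 CPM (median 2811) (log2 fold change 3.55 ± 0.28 (SE), adjusted p = 2.63e-08). The glycosidases Hexa (4.07), Man2b1 (3.65), Gusb (2.76) and Glb1 (2.09) were all higher in myeloid-like cells, with the log2 fold change in brackets.

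Of the genes of lipid handling, Grn, which encodes the lysosomal glycoprotein progranulin, had the largest log2 fold change (3.98 ± 0.22). The cholesterol carrier Npc2 (3.06 ± 0.19), the saposin precursor Psap (2.83 ± 0.18), the acid ceramidase Asah1 (2.33 ± 0.19) and the thioesterase Ppt1 (1.47 ± 0.16) were also higher. Lipa, the acid lipase, was the exception of this group: it stood at 217 to 541 CPM (median 317) in myeloid-like cells and 265 to 584 CPM (median 339) in endothelial-like cells, and was higher in myeloid-like cells in 3 PDOXs and lower in 4 (log2 fold change 0.10 ± 0.18 (SE), adjusted p = 0.66).

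The membrane proteins split in the same way. Cd68, a macrophage marker, stood at 300.4 (T16) to 1053 CPM (T233), median 769.5, in myeloid-like cells and at 1.52 to 152 CPM (median 16.5) in endothelial-like cells (log2 fold change 5.0004 ± 0.35 (SE), adjusted p = 9.01e-09). Laptm5, a lysosomal protein of blood-derived cells, had a log2 fold change of 4.99 ± 0.36 and the tetraspanin Cd63 of 4.15 ± 0.26. Lamp2 (2.26), Scarb2 (1.86) and Lamp1 (1.40) had smaller ones. Laptm4a was the one member that ran the other way, at 309.7 to 641 CPM (median 475) against 602 to 1245 CPM (median 812), and was lower in myeloid-like cells in 7 of 7 PDOXs (log2 fold change -0.59 ± 0.17 (SE), adjusted p = 0.00693). Of the proton pump genes, Atp6ap1 was higher in myeloid-like cells (1.44 ± 0.18), whereas Atp6v0d1 (0.38 ± 0.18, adjusted p = 0.0855) and Atp6v1a (0.21 ± 0.17, adjusted p = 0.295) did not pass.

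Against astrocyte-like cells, fewer members stood apart. In the same test over 5720 genes and 6 PDOXs, 23 of 33 members were higher in myeloid-like cells, 1 was lower and 9 passed in neither direction. Of all genes, 29.5% were higher and 23.6% lower, and the median log2 fold change was 1.96 over the members and 0.11 over all genes. The largest differences were those of Cd68 (4.32 ± 0.35), Ctss (3.98 ± 0.43), Ctsh (3.92 ± 0.34), Laptm5 (3.54 ± 0.39), Ctsc (3.47 ± 0.32), Grn (3.33 ± 0.30) and Ctsd (3.28 ± 0.31). All 6 cysteine cathepsins and all 5 glycosidases were higher, with Ctsl (0.99 ± 0.24, adjusted p = 0.0022) and Neu1 (1.24 ± 0.31, adjusted p = 0.00311) the closest. Without the 276 cells with markers of other classes, 24 of 33 were higher and 1 lower.

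Cst3 did not separate these classes: it stood at 14957 to 37211 CPM (median 31615) in astrocyte-like cells, was higher in myeloid-like cells in 3 PDOXs and lower in 3 (log2 fold change 0.12 ± 0.32 (SE), adjusted p = 0.791). Cd63 stood at 588 to 1577 CPM (median 1095) in astrocyte-like cells, within its range in myeloid-like cells (log2 fold change 0.18 ± 0.25 (SE), adjusted p = 0.587). The other members that did not pass were Tpp1 (0.18), Npc1 (0.13), Asah1 (0.47), Lamp1 (0.37), Scarb2 (0.40), Atp6v0d1 (-0.10) and Atp6v1a (-0.14). Tpp1 and Npc1 are known as genes whose loss causes neuronal storage disease, and both are used by many cell types. Laptm4a was again lower in myeloid-like cells, in 6 of 6 PDOXs (log2 fold change -0.85 ± 0.22 (SE), adjusted p = 0.00361). Lipa, which did not differ from endothelial-like cells beyond its spread, was higher than in astrocyte-like cells (log2 fold change 1.96 ± 0.24 (SE), adjusted p = 2.61e-06).

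**Figure D2:**
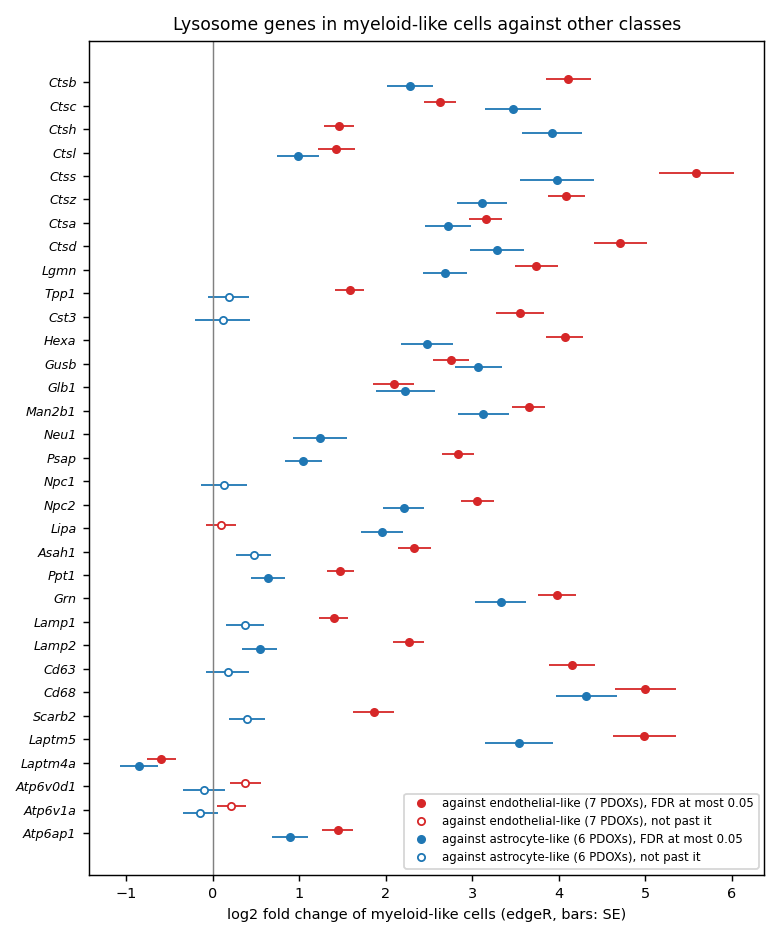
Log2 fold change (x axis) of each member (y axis) in myeloid-like cells against endothelial-like cells (red, 7 PDOXs) and astrocyte-like cells (blue, 6 PDOXs), with edgeR standard errors as bars and filled symbols for an adjusted p of at most 0.05. Ctss reaches 5.59 and 3.98, while Laptm4a lies left of 0 in both (-0.59 and -0.85), and Atp6v1a lies near 0 in both.

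Drop-seq libraries contain free RNA, and members with a very high level in myeloid-like cells would be counted in other cells through it. The 6 myeloid genes named above served as the measure. These genes are also among the 12 myeloid markers and, unlike the members, were not left out of the clustering. Whether the placing of cells rich in them lowered their percent in other classes was not tested. In endothelial-like cells the 6 genes stood at 0.811% to 9.18% of their myeloid level (median 2.19%, normal brain 2.70%), and in astrocyte-like cells at 1.68% to 20.05% (median 8.19%, normal brain 1.73%). A member present only through such RNA would stand at the same percent of its own myeloid level. Measured levels exceeded that level in every PDOX for 26 of 33 members in endothelial-like cells and for 22 of 33 in astrocyte-like cells, and exceeded it more than 2-fold in every PDOX for 17 and 15. With the myeloid level taken without the 276 cells with markers of other classes, these counts were 25 and 22, and 16 and 15. The same counts against that level were not made over all genes, so they do not set the members apart. Ctss (median ratio of measured to that level 0.890 in endothelial-like cells, 0.810 in astrocyte-like ones) and Cd68 (0.898 and 0.671) stood below it, so no level above that of the 6 genes was measured for them, and whether these UMIs came from free RNA or from joined cells was not tested. Also below it were Ctsh (0.883) and Glb1 (0.834) in astrocyte-like cells, and Laptm5 (1.17) was close to it in endothelial-like cells.

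Other members stood far above that level. In endothelial-like cells the highest were Laptm4a (63.1-fold above), Lipa (51.2-fold), Atp6v1a (42.8-fold) and Atp6v0d1 (34.2-fold), followed by Ppt1 (18.6-fold), Ctsl (17.6-fold) and Lamp1 (17.0-fold). In astrocyte-like cells they were Laptm4a (26.6-fold), Atp6v1a (16.1-fold), Cd63 (14.0-fold), Tpp1 (13.3-fold), Atp6v0d1 (12.3-fold) and Cst3 (10.4-fold). Ctsh differed between the classes: its median ratio was 14.7 in endothelial-like cells, where it stood at 129 to 357 CPM (median 205), and 0.883 in astrocyte-like cells, where it stood at 8.80 to 105 CPM (median 26.2). That difference was not tested.

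**Figure D3:**
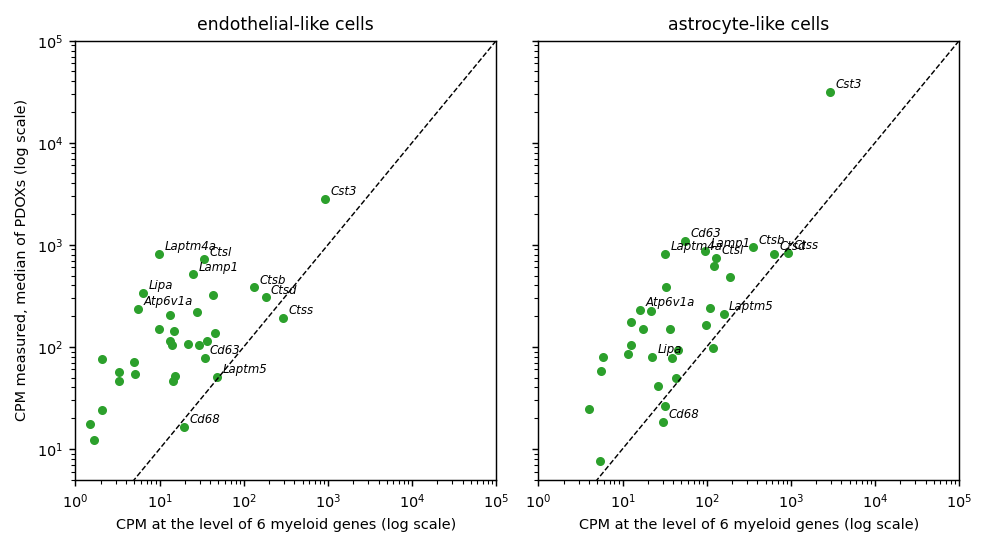
Median measured level of each member (y axis, CPM, log scale) against the level it would have at the percent of the 6 myeloid genes (x axis, CPM, log scale), in endothelial-like cells (left, 7 PDOXs) and astrocyte-like cells (right, 6 PDOXs), with the line of equal values dashed. Ctss lies near the line in both panels, and Laptm4a, at 812 CPM on the left and 816 CPM on the right, lies far above the line.

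The second comparison set the PDOXs against the normal brain, class by class. In myeloid-like cells the summed share differed little, 7.99% in the normal brain against a median of 8.54%, with P8 and T101 below the brain and the other 5 above it. With Cst3 left out of both the genes and the total, the share was 3.11% in the normal brain and 3.88% to 6.81% in the PDOXs, above the brain in 7 of 7. Cst3 itself ran the other way, at 50347 CPM in the brain and 18568 (T192) to 53427 CPM (P13), median 29548, in the PDOXs, lower in 6 of 7. These values mix states of cells, and the order turned in the cluster with markers of homeostatic microglia, in the 4 PDOXs with 10 or more such cells. There the share was 8.05% in the brain and 10.4% (P8), 9.15% (T192), 11.2% (T16) and 13.9% (P13) in the PDOXs, and Cst3 stood at 51025 CPM in the brain, below P8, T16 and P13 (63421 to 106438 CPM) and above T192 (46799 CPM).

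No member passed the study's thresholds (adjusted p of at most 0.01 and a log2 fold change of at least 1) in the edgeR fit over 9245 genes, in which 0.0216% of all genes did. The lowest adjusted p of a member was 0.0705, 18 of 33 had an unadjusted p under 0.05 (21.4% of all genes did), and DESeq2 called 9 (2.92% of all genes). With a single normal brain, its spread had to be taken from the PDOXs. By position alone, 18 members lay above the brain in every PDOX, where 18.1% of all genes did, and 1 member lay below it in every PDOX, where 31.2% of all genes did. The median log2 fold change was 1.13 over the members and 0.09 over all genes. The groups lay in different sub-clusters: a cluster with markers of homeostatic microglia held 618 of the 638 myeloid-like cells of the brain but 5 (T233) to 99 (P13) cells of each PDOX. Within that cluster, in the 4 PDOXs with 10 or more such cells, 15 of 30 members lay above the brain in every PDOX, where 9.07% of 2557 genes did, a comparison added after seeing the data. Among them were Ctsb, Ctsd, Cd63 and Cd68. Leaving out the 276 cells with markers of other classes, none of which came from the brain, gave 0 members past the threshold, 18 with an unadjusted p under 0.05, 18 above and 2 below the brain in every PDOX, and a median of 1.20.

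Among the proteases, Ctsb stood at 1249.8 CPM in the normal brain and 3037 (T16) to 7239 CPM (T192), median 5964, in the PDOXs (log2 fold change 2.36 ± 0.63, adjusted p = 0.0784). Ctsd stood at 2590.4 CPM in the normal brain and 6656 (T16) to 19193 CPM (T233), median 8709.5, in the PDOXs (log2 fold change 2.44 ± 0.81, adjusted p = 0.119). Ctsz stood at 438 CPM in the normal brain and 961 (T16) to 2913 CPM (T192), median 1815, in the PDOXs (log2 fold change 2.28 ± 0.71, adjusted p = 0.103). In each of these, every PDOX lay above the brain, with T16 lowest. Ctsl (log2 fold change 2.09 ± 0.65), Ctsh (1.83 ± 0.63), Ctsc (1.54 ± 0.45) and Ctsa (1.40 ± 0.59) also lay above the brain in 7 of 7. Ctss did not share this pattern: it stood at 12608 CPM in the brain, and 3 PDOXs lay above and 4 below (0.19 ± 0.51, adjusted p = 0.856). Lgmn likewise lay above in 3 and below in 4 (0.09 ± 0.48, adjusted p = 0.938).

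Cd63 had the largest log2 fold change of the members, 2.79 ± 0.85 (adjusted p = 0.101), and stood at 248 CPM in the normal brain and 585 (T101) to 2512 CPM (T233), median 1674, in the PDOXs. Cd68 stood at 248 CPM in the normal brain and 300.4 (T16) to 1053 CPM (T233), median 769.5, in the PDOXs (1.66 ± 0.73, adjusted p = 0.211). Laptm5 was the member that lay below the brain in every PDOX, at 3229 CPM in the normal brain and 1626 (P3) to 3124 CPM (T192), median 2193, in the PDOXs (-0.34 ± 0.41, adjusted p = 0.65). Of the lipid genes, Npc2 (2.20 ± 0.57, adjusted p = 0.0747), Grn (1.86 ± 0.60), Lipa (1.29 ± 0.57) and Psap (1.13 ± 0.49) lay above the brain in 7 of 7, while Npc1 and Ppt1 lay above it in 1 of 7. Atp6v1a, the catalytic subunit of the proton pump, had the lowest adjusted p of all members, at 68.8 CPM in the normal brain and 163 (T101) to 289 CPM (P3), median 244, in the PDOXs (log2 fold change 1.93 ± 0.48, adjusted p = 0.0705). Its brain value rested on 25 UMIs, and those of Cd63 and Cd68 on 90 each.

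P8 was the PDOX sorted in the same way as the normal brain and listed with the same symbol release, and it allowed the comparison within that method. In its myeloid-like cells, 29 of 33 members lay above the brain, 15 of them at least 2-fold, and 1, Cst3, lay at least 2-fold below. Over 9367 genes, 45.7% lay above the brain and 17.1% at least 2-fold above. The member counts were again 29 and 15 without the 276 cells. Cells of unnamed sub-clusters, 236 with a median of 2658 UMIs, held 1151880 of the 1409030 myeloid-like UMIs of P8. Of the brain's 638 myeloid-like cells, 618 lay in the homeostatic microglia-like cluster (median 487.5 UMIs). In that cluster Cst3 stood at 63421 CPM in P8, above the brain (51025 CPM). The part of these states in the counts was not tested. P8 held 6555 CPM of Ctsb, 8709.5 CPM of Ctsd and 1697 CPM of Cd63. This is 1 library against 1, with no test. Among the PDOXs, P3 had the most members at least 2-fold above the brain (20 of 33, against 22.7% of genes) and T16 the fewest (8, against 19.9%).

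**Figure D4:**
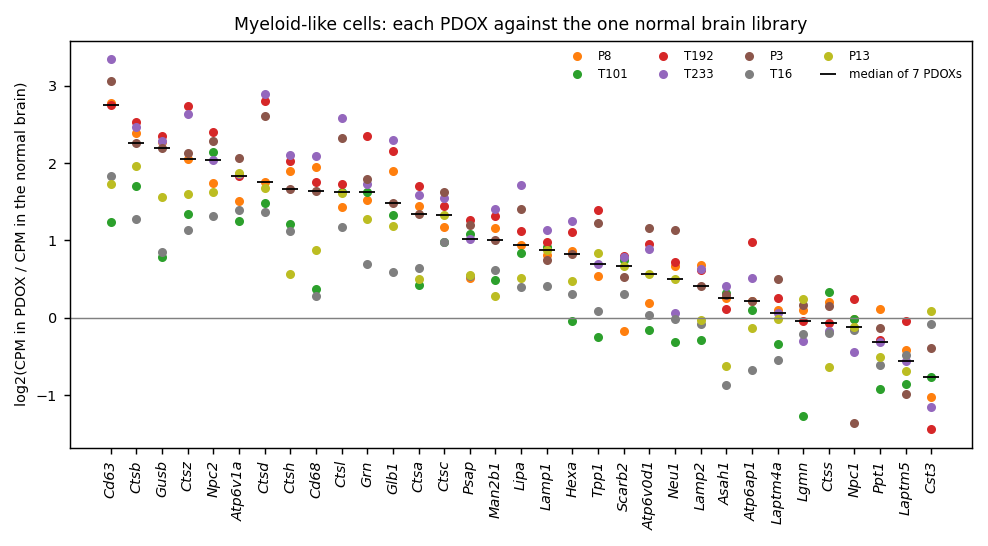
Log2 ratio of CPM in each PDOX to CPM in the normal brain (y axis) for the 33 members (x axis, ordered by the median over the 7 PDOXs, black bars) in myeloid-like cells, 1 colored point per PDOX. The median of Cd63 is 6.76-fold and that of Ctsb 4.77-fold on the linear scale, and Laptm5 has all 7 points below 0.

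In endothelial-like cells no member passed (0.0% of 5597 genes did), and 2 of 30 members had an unadjusted p under 0.05 in the edgeR fit, where 11.2% of all genes did. DESeq2 also called 0. Lamp1 stood at 163 CPM in the brain and 375 (P8) to 571 CPM (T233), median 516, in the PDOXs (2.14 ± 0.64, adjusted p = 0.413). In all, 14 of 30 members tested lay above the brain in every PDOX, where 34.2% of all genes did, and 0 lay below in every PDOX, where 27.9% did. Glb1, which was not among the members tested, lay below the brain in every PDOX, with 1 UMI in the brain. The brain held only 36 endothelial-like cells with 18435 UMIs, so that 1 UMI was worth 54.2 CPM, and 9 members had 0 UMIs there, which allows up to 163 CPM (3 UMIs). Only Atp6v1a exceeded that limit in the median PDOX, at 236 CPM, at least 1.45-fold higher. The summed share was 0.532% in the brain and 0.706% to 1.55% in the PDOXs, above the brain in 7 of 7.

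In astrocyte-like cells no member passed either (0.0% of 6090 genes did), with a lowest adjusted p of 0.412 in edgeR, and DESeq2 called 0 members as well (0.0328% of all genes). The share was 1.54% in the brain and 2.32% to 5.46% in the 6 PDOXs. Of 32 members tested, 14 had an unadjusted p under 0.05 (11.0% of all genes did), a count that was 0 with cells called from markers alone and 2 at 500 genes per cell, and 15 lay above the brain in every PDOX, where 14.5% of all genes did. Only Ppt1 lay below the brain in every PDOX, where 19.3% of all genes did. Cst3 stood at 9991 CPM in the brain and 14957 (P8) to 37211 CPM (T233), median 31615, in the PDOXs (1.49 ± 0.69, adjusted p = 0.447). Ctsl (1.21 ± 0.54), Scarb2 (1.61 ± 0.67) and Atp6v1a (1.15 ± 0.49) lay above it in 6 of 6 and stood above the level of the 6 myeloid genes. Ctss (2.42 ± 1.0001), Cd68 (2.75 ± 1.28), Ctsd (2.75 ± 1.10) and Laptm5 (2.36 ± 0.99) were each highest in T192, as those 6 genes were, which stood at 1.73% of their myeloid level in the brain and 1.68% to 20.05% in the PDOXs, and their part in these values was not tested. In P8, where the 6 genes stood at 1.68%, 27 of 33 members lay above the brain (56.9% of all genes) and 6 at least 2-fold, where 1066 of 8866 genes did.

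The untreated PDOXs differed from each other in myeloid-like cells, by 1.58-fold (Ctsc) to 4.30-fold (Cd63) between the lowest and the highest, and the coefficient of variation ranged from 14.7% (Lamp1) to 49.0% (Cd63). T192 was highest for 12 members and T233 for 11, so the 2 PDOXs of the same patient held the highest value of 23 of 33 members, where they held that of 16.3% of 9245 genes. Without the 276 cells with markers of other classes they held 21 (15.8% of genes). T16 was lowest for 14 members (17.8% of genes) and T101 for 11 (27.4%). The order of Ctsd shows this, from 6656 CPM in T16, 7219 in T101, 8279 in P13 and 8709.5 in P8 to 15797 in P3, 18008 in T192 and 19193 in T233. Cst3 followed another order, with T192 lowest at 18568 CPM, T233 next at 22646 and P13 highest at 53427. Without the 276 cells with markers of other classes, Ctsd stood at 18859 CPM in T192, 20554 in T233 and 6547 in T16, and Cst3 at 73235 CPM in P13. With 1 library per PDOX, no difference between PDOXs was tested.

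The myeloid-like cells were also divided by their sub-clusters. The activated microglia-like group held 585 cells of a cluster led by H2-Ab1, H2-Aa and Cd74 and 521 cells of a cluster led by Cxcl2, Tnf and Ccl4, which raised 5 and 7 of 10 activation markers. It was set against 1 cluster that carried markers of homeostatic microglia (among them P2ry12, Tmem119 and Gpr34) in the 4 PDOXs with 10 or more cells of both (P8, T192, T16 and P13). A cluster of 539 cells with Spp1 and Cst7 among its leading genes raised 3 of the 10 markers and stayed unnamed. The division left many cells unnamed, 696 of 1041 in T192 for example, and T192 had only 14 homeostatic microglia-like cells. Of the 33 members, 16 were higher in activated microglia-like cells in all 4 PDOXs, where 12.9% of 4513 genes were, and 3 were lower in all 4, where 9.44% were. The summed share of the 33 genes, of which Cst3 is a large part, was lower in activated than in homeostatic cells of P8 (8.41% against 10.4%), T16 (8.14% against 11.2%) and P13 (9.08% against 13.9%) and 9.28% against 9.15% in T192, and without Cst3 it was higher in all 4. Cd63 had the widest ratio, a median of 4.70 (2.25 to 4.89), from 238 to 1137 CPM in P13. Lipa (2.55 (1.37 to 3.01)), Npc2 (2.45 (1.65 to 2.75)), Ctsb (2.22 (1.68 to 2.73)) and Ctsh (1.95 (1.72 to 3.60)) followed, with the lowest and highest ratio in brackets.

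Cst3 and Lgmn ran the other way. Cst3 stood at 63421 CPM in homeostatic and 25025 in activated microglia-like cells of P8, 46799 and 21749 in T192, 76372 and 33542 in T16, and 106438 and 41937 in P13, a median ratio of 0.417 (0.394 to 0.465). The values of the 2 states did not overlap. The median ratio of Lgmn was 0.711 (0.416 to 0.860). Npc1, at 0 to 249.6 CPM in either state, was the third. Ctss differed least of the members that were higher in all 4, at 1.26 (1.06 to 1.72). The median UMIs per cell were higher in activated than in homeostatic cells in 3 of these 4 PDOXs, for example 2678 against 820 in P13, and the part of depth in these ratios was not tested.

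These states depended on how cells were assigned. With a rule on each cell's own markers instead of clusters, added after seeing the data, all 7 PDOXs could be compared, over 1868 genes. Then 5 of 29 members were higher in activated cells in all 7 PDOXs (4.01% of all genes were): Ctsb (1.73 (1.34 to 2.37)), Ctsz (1.46 (1.14 to 2.83)), Ctsd (1.35 (1.21 to 2.37)), Npc2 (1.82 (1.09 to 2.61)) and Cd63 (3.04 (2.15 to 6.77)). Cst3 (0.301 (0.244 to 0.505)) and Lgmn (0.478 (0.346 to 0.799)) were lower in all 7 (3.37% of all genes were). These 7 genes were also among the members that pointed the same way in all 4 PDOXs above. In the normal brain, the homeostatic microglia-like cluster held 1189 CPM of Ctsb and 214 CPM of Cd63, below the homeostatic cells of each of the 4 PDOXs for both genes.

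Outside microglia-like cells, the share in monocyte-derived-like cells was 2.91% in P8, 4.52% in T101 and 4.10% in P13, against 1.90% in the 13 such cells of the normal brain (95% Clopper-Pearson interval 1.65% to 2.18%, counting error only). In border-associated macrophage-like cells it was 3.87% in T16, 4.33% in P13 and 3.74% in the normal brain. In every one of these samples the share was lower than in the myeloid-like cells of the same sample.

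The last comparison set temozolomide-treated P3 against untreated P3, 1 library each, so that ratios carry counting intervals only and no test. In myeloid-like cells the share was 10.2% in treated and 10.04% in untreated P3. None of 33 members differed by 2-fold or more, where 18.2% of 8038 genes did, and the median log2 ratio was 0.01 over the members. Cst3 stood at 38295 CPM treated and 38264 untreated, a ratio of 1.001 (0.980 to 1.02). Ctss had a ratio of 1.07 (1.04 to 1.11), Ctsb of 1.20 (1.14 to 1.26) and Ctsd of 0.932 (0.901 to 0.963). The widest ratios were those of low genes, Npc1 at 1.88 (0.935 to 4.18), Neu1 at 0.523 (0.322 to 0.858) and Tpp1 at 0.537 (0.406 to 0.712), with the 95% counting interval in brackets. Without the cells with markers of other classes, Npc1 stood at 50.6 CPM treated and 24.1 untreated and was the 1 member past 2-fold.

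In endothelial-like cells, 9 of 29 members were at least 2-fold lower in treated P3 and 0 at least 2-fold higher, where 21.6% of 5156 genes differed by 2-fold in either direction. They were Ctss (0.212 (0.112 to 0.370)), Laptm5 (0.231 (0.0442 to 0.769)), Cd63 (0.242 (0.0617 to 0.691)), Hexa (0.282 (0.0307 to 1.27)), Ctsd (0.300 (0.211 to 0.416)), Gusb (0.363 (0.123 to 0.893)), Cst3 (0.465 (0.406 to 0.532)), Grn (0.466 (0.215 to 0.925)) and Ctsz (0.484 (0.232 to 0.936)). In the same cells the 6 myeloid genes stood at 4.36% of their myeloid level in untreated and 1.09% in treated P3, and the 12 myeloid markers summed to 1082 and 339 CPM. Their part in the lower values was not tested. Of members that stood far above the level of the 6 genes, Laptm4a had a ratio of 0.910 (0.700 to 1.18), Lipa of 0.894 (0.587 to 1.34) and Atp6v1a of 0.808 (0.456 to 1.39), with intervals that held 1, and Ctsl of 0.642 (0.509 to 0.803), with an interval below 1. At 500 or more genes per cell, 2 of 28 members were at least 2-fold lower and 1 higher (22.2% of 4285 genes differed). With cells called from markers alone, 5 of 26 members were lower and 1 higher, where 24.0% of 3489 genes differed by 2-fold.

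**Figure D5:**
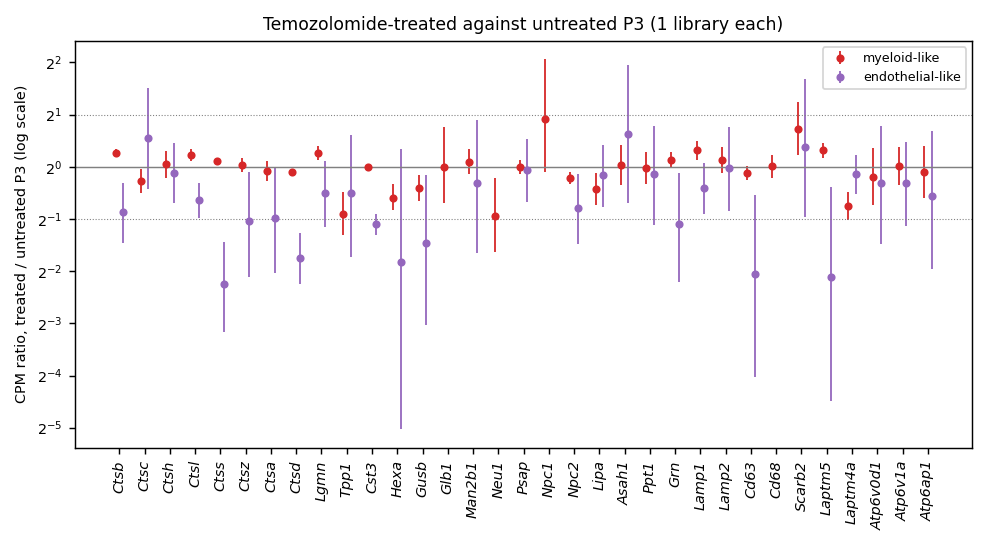
Ratio of CPM in temozolomide-treated to untreated P3 (y axis, log scale) for each member (x axis) in myeloid-like (red) and endothelial-like cells (purple), with 95% counting intervals. All myeloid-like points lie between 0.523 and 1.88, and the endothelial-like points reach down to 0.212 for Ctss.

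Other genes of the lysosome, a list of 72 that shares no gene with the 34, gave the wider setting. Against endothelial-like cells, 35 of 42 tested were higher in myeloid-like cells and 1 was lower, with a median log2 fold change of 1.34. Of all genes, 26.8% were higher and 28.3% lower. The 3 with the lowest adjusted p were Slc11a1, the phagosomal metal transporter (5.70 ± 0.29, adjusted p = 9.89e-10), Creg1 (3.03 ± 0.16, adjusted p = 1.30e-09) and Arsb, a sulfatase (4.38 ± 0.24, adjusted p = 1.37e-09), and Laptm4b was lower (-0.78 ± 0.20, adjusted p = 0.00412). Against astrocyte-like cells, 28 of 52 were higher and 5 lower (29.5% and 23.6% of all genes), with a median of 0.68. Pla2g15 (3.27 ± 0.34, adjusted p = 4.01e-07) and Creg1 (2.06 ± 0.22, adjusted p = 5.28e-07) were among the higher genes, and Laptm4b (-1.62 ± 0.25, adjusted p = 3.96e-05), Ctso (-1.40 ± 0.24, adjusted p = 1.06e-04) and Lmbrd1 (-1.25 ± 0.22, adjusted p = 1.07e-04) the lower ones. Against the single normal brain, the median log2 fold change in myeloid-like cells was 0.48 over 66 tested and 0.09 over all genes. Both Laptm4 genes, Laptm4a of the members and Laptm4b of this list, were lower in myeloid-like cells in both comparisons of classes, in every PDOX compared.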

How the data were processed

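The values were UMI counts per gene and cell barcode in 1 table per sample, deposited by the authors as raw counts from Drop-seq libraries. The submitters' processing notes name bcl2fastq 2.0, STAR (version not given) and the builds GRCm38 and mm10, and the study mapped reads to human and mouse genomes to separate the cells. The counting tool is not given in the sources used here. No counts were normalized before deposit, and the tables hold all genes detected in each sample, so genes listed in every table were used.

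Barcodes under 200 genes or over 30% mitochondrial UMIs were dropped, and cells with a Scrublet score above the bound of the sample's highest 5% were left out as likely doublets (ties at the bound were kept). Cells were clustered in scanpy 1.11.5 with leidenalg 0.10.2 (2000 variable genes, 30 principal components, 20 neighbors, resolution 1) without the lysosome genes. A cluster was named where at least 3 and more than 50% of a class's markers were raised 2-fold, and states of myeloid-like cells needed 50% of their markers raised 1.5-fold. This rule was revised after clusters were seen. Names were rebuilt here, so values can differ from the study's. UMIs were summed per sample and class of at least 10 cells and tested with edgeR 4.0.16 (TMM, filterByExpr, quasi-likelihood F-test, R 4.3.3), with p-values adjusted by Benjamini-Hochberg over all genes tested. Classes were compared within PDOXs with the PDOX as a block, since both classes came from the same mouse. PDOXs were compared with the brain at an adjusted p of at most 0.01 and a log2 fold change of at least 1. CPM were computed from the UMIs of the summed cells, and intervals are exact (95%) and cover counting error only. The fits were tested on simulated counts. DESeq2 1.42.0, other scalings, filters, cell rules and leaving out each PDOX were tried as alternatives.

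The members and all lists were chosen with earlier results of these data known. All 34 members are named, and of the other lysosome genes at most 3 in each direction per comparison, those with the lowest adjusted p, of which 1 is not reported here. Promoter sequences are from RefSeq (GRCm38.p6). Human tumor cells and other published samples of the study were not analysed here.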

Additional observations from a re-analysis of the deposited data

Results flagged for a closer look

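Single samples stood far from the others of their group for 8 values among 33 members examined in each of 3 classes, 4 each in endothelial-like and astrocyte-like cells and 0 in myeloid-like ones, where chance marks about 1 group in 20. In endothelial-like cells T233 was far above the other untreated PDOXs for Ctss (1154 CPM, next 534), Cd63 (455 CPM, next 133) and Cd68 (152 CPM, next 37.2). T233 also had the highest level of the 6 myeloid genes in that class (9.18% of their myeloid level), whose part in these values was not tested. P8 was far below the others for Scarb2 (0 CPM, next 40.3).

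In astrocyte-like cells T192 was far above the others for Ctsb (2816 CPM, next 1374), Ctsc (146 CPM, next 61.1), Ctsz (762 CPM, next 288) and Ctsa (315 CPM, next 117). T192 had the highest level of the 6 myeloid genes there (20.05%), and their part was not tested. Glb1 lay above the brain in every PDOX in myeloid-like cells (median 2.80-fold) and below it in every PDOX in endothelial-like cells (0.439-fold). The difference between the classes was not tested, and the endothelial-like value of the brain was 1 UMI.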

How the results depend on the processing

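With any 1 PDOX left out, there were 26 to 29 members higher in myeloid-like than endothelial-like cells (27 with all), 20 to 26 against astrocyte-like cells (23), 0 against the brain in each class, and 16 to 20 members higher in activated microglia-like cells in every PDOX (16). Without the replicate block, 27 and 22 members were higher than in endothelial-like and astrocyte-like cells. The 28 members called against endothelial-like cells kept direction and call in 415 of 420 values over the alternatives (Glb1 was not tested in the other 5), and the 24 called against astrocyte-like cells in 320 of 336 (Glb1 or Neu1 was not tested in 4). In the other 12, Lamp2, Laptm4a or Ppt1 lost the call. DESeq2 called 9 members in myeloid-like cells against the brain. For temozolomide, 1 member passed 2-fold in myeloid-like cells with cells from markers alone, with the sub-clusters holding markers of another class left out (added after seeing the data), and at 500 genes per cell, and 3 did in endothelial-like cells at 500 genes. Of all genes, 19.2% to 20.5% passed 2-fold in these settings of myeloid-like cells and 22.2% in that of endothelial-like cells. Activated against homeostatic cells gave 5 members with states from markers alone (added after seeing the data) and 9 without the doublet step, in 7 PDOXs each. The median share in astrocyte-like cells was 2.23% with cells from markers alone. The cause of these changes was not tested. At 500 genes per cell no activated cluster formed, and the brain held too few endothelial-like cells for a value. The comparisons rest on 1 brain, 1 treated library and 36 endothelial-like brain cells.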
